A study of Mus musculus with 6 samples.

Results

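Adrenergic signalling in the heart was followed through 9 genes: the receptor genes Adrb1, Adrb3, Adra1a, Adra1b and Adra1d, the G protein gene Gnas, the adenylyl cyclase genes Adcy5 and Adcy6, and the receptor kinase gene Adrbk1. They were chosen by name among the 36163 names on the arrays, with every probe that carries one of the 9 names, which gave 18 of 55681 probes. A probe was tested where all arrays of 1 group or of both measured it well above background. That left 14 of the 18 probes among 28030 in all, and each of the 9 genes had a tested probe. The study asked which genes of the heart change when mice are suspended by the tail, a procedure that unloads the hindlimbs and is used to simulate weightlessness. Total RNA from cardiac muscle of 3 sham and 3 tail-suspension C57BL/6 male mice was hybridised to 6 Agilent arrays that read 1 dye. Tail-suspension lasted 28 days, whereas sham mice were kept on the same feed and housing without suspension. The labels put the mice at 10 weeks when suspension began and also give an age of 11 weeks, which do not match over 28 days of suspension. No group carried a transgene, a deletion or a drug.

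Noradrenaline from sympathetic nerves and adrenaline from the adrenal gland drive the heart through these receptors. The beta-1 receptor, the product of Adrb1, couples to the stimulatory G protein made by Gnas, which switches on adenylyl cyclase. The cAMP that the cyclase makes activates protein kinase A and with it contraction and relaxation. The alpha-1 receptors couple to another G protein, Gq, which activates phospholipase C, and receptor kinases such as GRK2, the product of Adrbk1, silence receptors that have been activated.

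Each probe on the array is a sequence of 60 bases that captures 1 stretch of a transcript, so a value is known only for that stretch. The first 30 bases of the probes on which the results turn are shown, as the array files give them, 5′ to 3′ and all in lower case, because no part of a probe carries more weight than another. Positions are those of the files, on mm9.
Adrb1, probe A_52_P322181 (chr19:56799215-56799274, plus strand): gttggaaggccattttgcacagtgttaggc
Adrb3, probe A_55_P2105685 (chr8:28337864-28337923, minus strand): agttttcatcgccctgaactggctgggcta
Adra1b, probe A_55_P2177721 (chr11:43589067-43589126, minus strand): cctacgccggccgggacttaagtctctctc
Adra1d, probe A_55_P2019954 (chr2:131371198-131371257, minus strand): tacagcaagctttggtggtatattggatgc
Adcy6, probe A_51_P243134 (chr15:98420404-98420418, minus strand): aggcagaggagaggaagatcagctggtcca
The position that the files give for the Adcy6 probe spans only 15 of its 60 bases. The other probes lie in 60 adjoining bases of the genome.

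A single slide held the 6 arrays, scanned once. Row 1 of the slide carried the 3 sham arrays and tail-suspension replicate 1, and row 2 the other tail-suspension arrays. Since row 2 held no sham array, a fit with the row as a block sets tail-suspension replicate 1 alone against the 3 sham arrays, and assumes that this array varies like the others. Each array measured 50.9% to 53.4% of probes well above background, and no spot was saturated. The log2 level used for all comparisons is the log2 processed intensity minus the log2 of the array's 75th percentile, which was 302 to 322 in sham hearts and 341 to 376 in tail-suspended hearts. The heart muscle markers Myh6, Tnnt2, Tnni3 and Actc1 were well above background on all 6 arrays. Summed over 10 heart muscle markers, the level in multiples of the 75th percentile was 4573 to 4943 in sham and 4296 to 4372 in tail-suspended hearts. Of these 9 tested, 1 was called by its brightest probe, Actc1 (-0.33, adjusted p = 0.0364), and its call was lost under quantile normalization. The probes of Myh6 did not move alike. Its brightest was at -0.09 (adjusted p = 0.603), and a dimmer probe, well above background on all 6 arrays, fell by 1.47 (adjusted p = 0.00957). The 8 neutrophil markers summed to 144 to 172 in sham and 208 to 238 in tail-suspended hearts. Of 7 tested, 4 rose, among them the defining markers S100a8 and S100a9, by 4.80 and 4.62 on the log2 scale. With a filter on all 6 arrays 2 were called, so some of these calls depended on the filter. The median log2 fold change of the 7 was 4.62, and the sum rose far less than that. The 8 red cell markers summed to 458 to 744 and 112 to 369, the 9 endothelial markers to 173 to 186 and 157 to 171, the 8 fibroblast markers to 279 to 296 and 276 to 349, and the 7 macrophage markers to 27.3 to 36.3 and 30.3 to 47.7, in the same order. Of their tested markers, none of 6 for red cells was called (Hba-a1 -1.50, Hbb-b1 -1.54). For endothelium 1 of 9 rose and 4 fell (not Pecam1 or Cdh5). For fibroblasts 1 of 8 fell (not Col1a1 or Pdgfra), with a list median of -0.63 and 2 of 8 changes positive. For macrophages 1 of 6 rose. A filter on all 6 arrays gave 0 macrophage and 3 red cell calls, so the macrophage rise depended on the filter. The part of these markers in the results for the 9 genes was not tested. In whole tissue, fewer cells of a type and less RNA per cell cannot be told apart.

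Tail-suspension hearts had lower levels of 3 of the 5 receptor genes, Adrb3, Adra1b and Adra1d, and a higher level of the cyclase gene Adcy6. The other 5 genes, Adrb1, Adra1a, Gnas, Adcy5 and Adrbk1, did not pass the test with any probe, although Adrb1 did in some alternatives. Over all 14198 named genes, read by their brightest tested probe, 10.5% were called higher and 11.2% lower. By probe, 1 of 14 was called higher and 5 were called lower, at an adjusted p under 0.05 in limma with Benjamini-Hochberg adjustment over all 28030 tested probes. Over all tested probes 10.8% were called higher, 9.57% lower and 20.4% in either direction, with a median log2 fold change of -0.005. The median over the 14 probes was -0.35. The levels of the groups did not overlap for 7 of the 14 probes, 1 higher and 6 lower, against 44% of all tested probes (22.1% higher and 21.9% lower). All 5 calls in the lower direction belong to the 8 tested receptor probes, of which 7 had a negative change. One of the 5, a dim Adra1d probe, entered the test only through the sham arrays, where it was higher, and with a filter on all 6 arrays 4 probes were called lower.

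**Figure D1:**
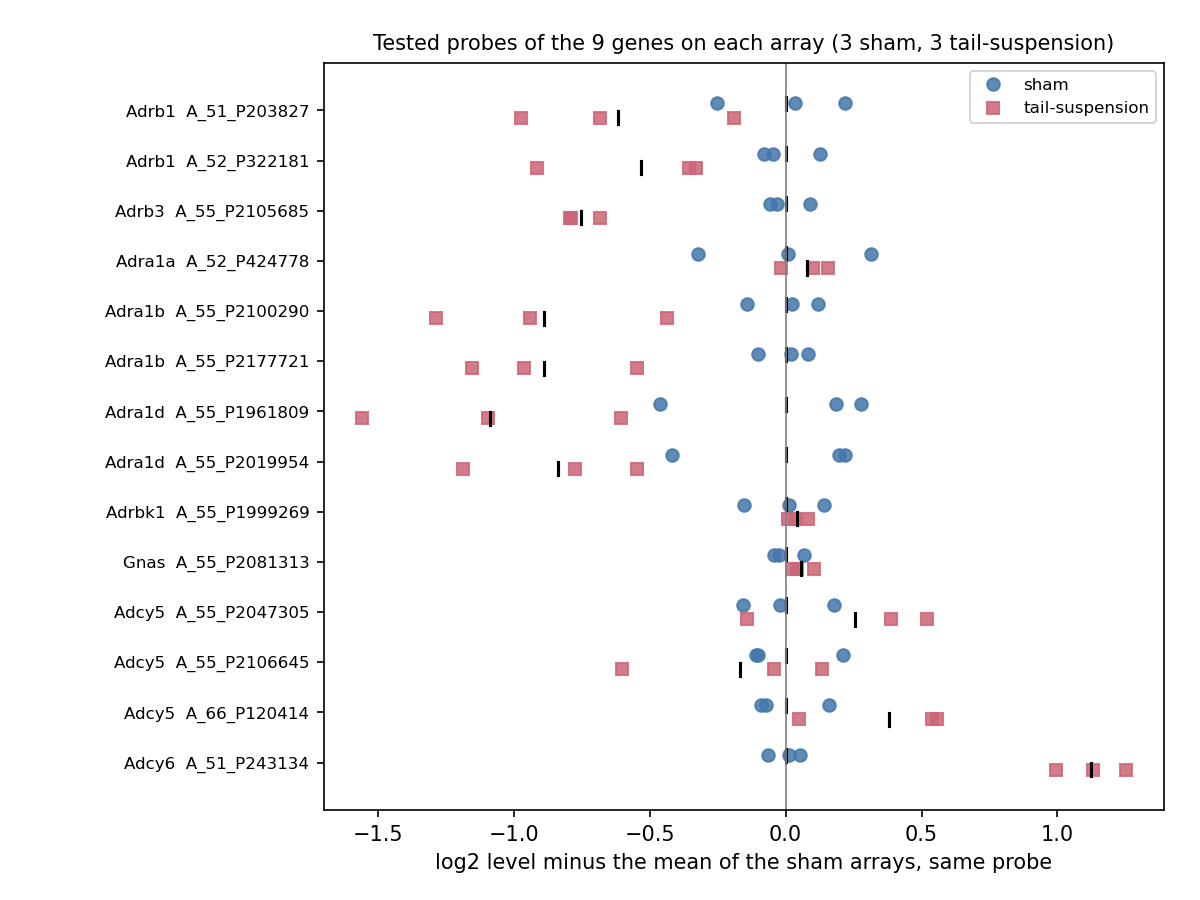
Log2 level of the 14 tested probes on each array, minus the mean of the sham arrays for the same probe (x axis), by gene and probe (y axis). Blue circles are the 3 sham arrays, red squares the 3 tail-suspension arrays, and black ticks the group means; the tail-suspension arrays of Adcy6 lie about 1 unit to the right of the sham arrays, and those of Adrb3, Adra1b and Adra1d lie to the left with no overlap.

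Adrb1 encodes the beta-1 receptor, the main beta receptor of heart muscle cells. Its probe A_52_P322181 gave processed intensities of 873, 888 and 944 on sham arrays 1 to 3 and 519, 859 and 841 on tail-suspension arrays 1 to 3. Every tail-suspension array was below every sham array, and replicate 1 lay far below the other tail-suspension arrays. The log2 fold change was -0.53 (SE 0.17, 95% interval -0.95 to -0.12), a level 1.45-fold lower, with an adjusted p of 0.0718 in limma. It therefore did not pass the threshold. It was called lower under normexp background correction (-0.47, adjusted p = 0.0363), with array weights, which count outlying arrays less (-0.57, adjusted p = 0.0446), and with an intensity trend and robust eBayes (-0.53, adjusted p = 0.0432). Without tail-suspension replicate 1 the log2 fold change was -0.34 (adjusted p = 0.102).

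The other Adrb1 probe, A_51_P203827 at chr19:56797242-56797301, gave 73.5, 83.0 and 56.4 in sham and 38.6, 73.5 and 52.2 in tail-suspended hearts. The groups overlapped, since tail-suspension replicate 2 lay inside the sham range. Its log2 fold change of -0.62 (SE 0.22, adjusted p = 0.0911) differed from that of the first probe by -0.08, with p = 0.8 in an exact two-sided permutation test of the difference per array. Without tail-suspension replicate 2 it was -0.83 (adjusted p = 0.0297), and it was also called lower under normexp correction (-0.40, adjusted p = 0.0303) and with array weights (-0.80, adjusted p = 0.0231). On row 1 of the slide alone, tail-suspension replicate 1 stood -0.91 from the sham mean with the first probe and -0.98 with the second. The row as a block gives these same values, from the 1 array that lay lowest (adjusted p = 0.0481 and 0.129).

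Over the 6 arrays, the genes whose log2 levels followed the first Adrb1 probe most closely, among 14197 genes compared by their brightest tested probe, were Siglece, 2810046L04Rik and Glis1. Their Pearson correlations were 0.992, 0.991 and 0.990. The values share the arrays and their scaling. They are the highest of 14197 over 6 arrays, so the choice itself favours values near the maximum, and shared regulation was not tested. None of the 3 passed the test themselves, with log2 fold changes of -0.19 (adjusted p = 0.206), -0.17 (adjusted p = 0.200) and -0.34 (adjusted p = 0.117).

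Adrb3 encodes the beta-3 receptor, best known from fat cells and present in the heart at low levels. Probe A_55_P2105685 gave intensities of 48.9, 43.8 and 42.1 in sham hearts and 28.1, 33.5 and 30.9 in tail-suspended hearts. The signal was dim but well above background on all 6 arrays, and the groups lay apart. Adrb3 fell by 0.75 on the log2 scale (SE 0.087, 95% interval -0.96 to -0.55, adjusted p = 0.00453 in limma), a level 1.69-fold lower. The call held with each array left out in turn, with adjusted p from 0.00802 to 0.0232. Under normexp background correction the log2 fold change shrank to -0.44 (adjusted p = 0.0170), and tail-suspension replicate 1 alone, which is what the slide row as a block leaves, was at -0.79 (adjusted p = 0.0567). The second Adrb3 probe, at chr8:28336268-28336327, gave 3.26 to 4.23 in sham and 4.49 to 8.89 in tail-suspended hearts, was well above background on none of them and was not tested.

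Fat cell markers are given beside Adrb3 because its receptor is best known from fat. Summed over 10 markers, their level was 185 to 204 in sham and 217 to 232 in tail-suspended hearts, and none of 3 tested was called. Nearly all of that sum came from Fabp4 and Cidea, which gave 185 to 204 and 216 to 229, whereas the other 8 markers summed to 0.11 to 0.43 and 0.28 to 2.80. Adipoq, the fat cell hormone adiponectin, was well above background on 1 sham and 1 tail-suspension array, Plin1, which coats fat droplets, on 1 tail-suspension array, and Ucp1, the marker of brown fat, on none.

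Adra1a encodes the alpha-1A receptor, which in the heart is found on a subset of muscle cells. Its single probe gave 64.7, 41.3 and 49.1 in sham and 54.5, 67.9 and 65.1 in tail-suspended hearts. The groups overlapped fully. The log2 fold change was 0.08, with a 95% interval of -0.32 to 0.48 and an adjusted p of 0.753, so that a change larger than 0.48 in either direction lies outside the interval. Its sign turned under normexp correction (-0.11), with the slide row as a block (-0.018) and without sham replicate 2 (-0.082).

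Adra1b encodes the alpha-1B receptor, the more abundant alpha-1 receptor of heart muscle cells. Probe A_55_P2177721 gave intensities of 2119, 2193 and 1822 in sham hearts and 1133, 1672 and 1095 in tail-suspended hearts. Replicate 2 was the highest of the tail-suspension arrays, yet below every sham array. Adra1b fell by 0.89 on the log2 scale (SE 0.16, 95% interval -1.28 to -0.50, adjusted p = 0.0163), a level 1.85-fold lower. The second probe, A_55_P2100290 at chr11:43588147-43588206, gave 341, 380 and 383 in sham and 208, 325 and 179.9 in tail-suspended hearts. Its log2 fold change was also -0.89 (SE 0.21, adjusted p = 0.0332), and the probes differed by -0.001 (exact permutation p = 1).

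The size of the Adra1b fall held better than its call. With each array left out the first probe ranged from -1.06 to -0.76, and it missed the threshold when sham replicate 1 (adjusted p = 0.0543), sham replicate 2 (0.0670) or tail-suspension replicate 1 (0.0509) was left out. The second probe ranged from -1.11 to -0.69 and passed the threshold only without tail-suspension replicate 2 (adjusted p = 0.00985). Within row 1 the differences of tail-suspension replicate 1 from the sham mean were -0.96 and -0.94, and with the row as a block, which rests on that 1 array, the adjusted p was 0.119 and 0.190.

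Adra1d encodes the alpha-1D receptor, known chiefly from smooth muscle of arteries. Probe A_55_P2019954 gave 97.3, 95.1 and 58.6 in sham and 60.6, 57.1 and 42.8 in tail-suspended hearts. As raw intensities the groups overlapped, since sham replicate 3 was at 58.6, but relative to each array's 75th percentile every tail-suspension array was below every sham array. Adra1d fell by 0.84 on the log2 scale (SE 0.23, 95% interval -1.39 to -0.29, adjusted p = 0.0469), a level 1.79-fold lower. The second probe, A_55_P1961809 at chr2:131371721-131371780, gave 30.3, 28.2 and 17.0 in sham and 17.4, 13.7 and 9.90 in tail-suspended hearts. It was well above background on all 3 sham arrays but on only 1 tail-suspension array, so that its log2 fold change of -1.09 (SE 0.29, adjusted p = 0.0431) rests in part on signals near background. With a filter on all 6 arrays it was not tested. The changes of the probes differed by -0.25, with p = 0.1 in the exact permutation test, the smallest possible.

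Both Adra1d calls lay close to the threshold. With each array left out, the first probe ranged from -1.04 to -0.66 and passed only when sham replicate 3 was left out (adjusted p = 0.0331). The second ranged from -1.33 to -0.85 and passed when sham replicate 3 (adjusted p = 0.0400) or tail-suspension replicate 1 (adjusted p = 0.0386) was left out. Normexp correction gave -0.54 and -0.47, and tail-suspension replicate 1 alone, with the row as a block, gave -0.55 and -0.61 (adjusted p = 0.357 and 0.355). Summed over 11 smooth muscle and pericyte markers, the level was 184 to 208 in sham and 194 to 233 in tail-suspended hearts, and of 10 tested Des and Mustn1 rose and Smtn fell. Des, which heart muscle cells also make in abundance, gave 32.4 to 41.6 and 64.6 to 76.7 of these sums, and without it the other 10 markers summed to 143 to 175 and 126 to 168, with overlap. This split was chosen after the values were seen, as were those given with the fat cell and nerve markers. Myh11, the smooth muscle myosin, had a log2 fold change of 0.51 (adjusted p = 0.0980), and Acta2, smooth muscle actin, 0.19 (adjusted p = 0.607).

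**Figure D2:**
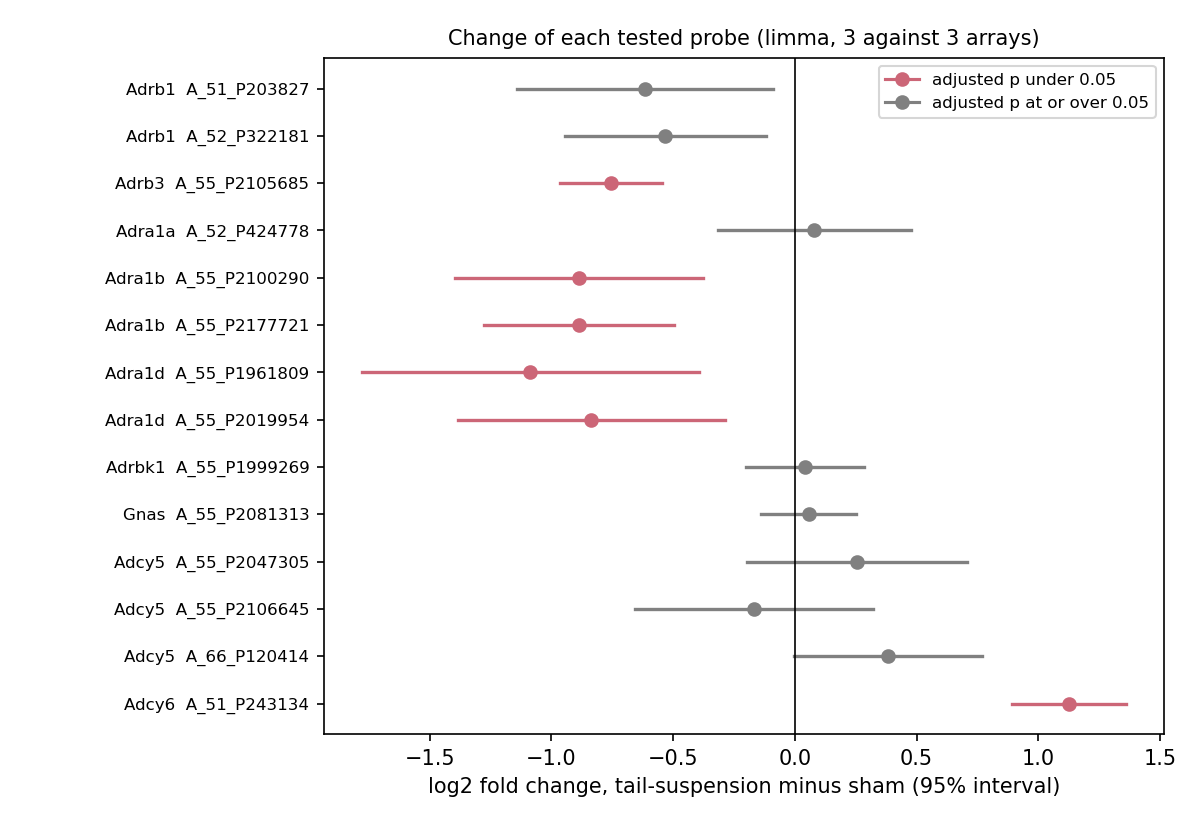
Log2 fold change of tail-suspension against sham (x axis) for each tested probe (y axis), as a point with its 95% interval from limma over 3 against 3 arrays. Red marks an adjusted p under 0.05; Adcy6 stands at 1.13, Adrb3 at -0.75, both probes of Adra1b at -0.89 and those of Adra1d at -0.84 and -1.09, while the intervals of both Adrb1 probes end below 0 without passing the adjusted threshold.

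Gnas makes the alpha subunit of the stimulatory G protein, and its imprinted locus also makes other transcripts from upstream promoters. Probe A_55_P2081313 (chr2:174171933-174171992, plus strand) gave intensities of 56330, 55129.7 and 56107 in sham and 62421, 71949 and 67783 in tail-suspended hearts. Relative to the 75th percentile the groups overlapped, with a log2 fold change of 0.06 (SE 0.082, 95% interval -0.14 to 0.25, adjusted p = 0.640). Under quantile normalization and in the authors' log2 values the sign turned, to -0.043 and -0.036. The other 3 Gnas probes, upstream at chr2:174125482-174125541, chr2:174122337-174122396 and chr2:174163501-174163560, were not tested. They gave 2.81 to 18.2, and 1 of them was well above background on a single sham array.

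Adcy6 makes one of the main adenylyl cyclases of heart muscle cells, the enzyme that turns ATP into cAMP. Its probe gave intensities of 3538, 3802 and 3491 in sham hearts and 8560.5, 8609 and 10263 in tail-suspended hearts. Every tail-suspension array was far above every sham array. Adcy6 rose by 1.13 on the log2 scale (SE 0.098, 95% interval 0.89 to 1.36, adjusted p = 0.00236), a level 2.18-fold higher, and 96.1% of all tested probes had a smaller change. The rise passed the test in every alternative run, from 0.99 in the authors' log2 values to 1.19 without tail-suspension replicate 2, with adjusted p from 0.000162 to 0.0385. Within row 1 of the slide tail-suspension replicate 1 stood 1.13 above the sham mean. The gene is read from 1 probe, so no second probe checks it.

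Adcy5 makes the other main cyclase of heart muscle. Its 3 probes lie within a short stretch of chromosome 16 and did not move alike. Probe A_66_P120414 (chr16:35304041-35304100) gave 1916, 2233 and 1770.0 in sham and 3090.3, 2433 and 3453 in tail-suspended hearts, with a log2 fold change of 0.38 (SE 0.16, 95% interval -0.005 to 0.77, adjusted p = 0.135). Without tail-suspension replicate 2 it was 0.55 (adjusted p = 0.0288). Probe A_55_P2047305 (chr16:35304398-35304457) gave 2398, 2998 and 2467 in sham and 3701, 2828 and 4467 in tail-suspended hearts, a log2 fold change of 0.25 (adjusted p = 0.364), and probe A_55_P2106645 (chr16:35304551-35304610) gave 205, 252 and 191 and then 226, 169 and 281, a change of -0.17 (adjusted p = 0.577), or 0.047 without tail-suspension replicate 2. The change of the latter differed from those of the other probes by 0.55 and 0.42, each with p = 0.1 in an exact two-sided permutation test, the smallest that 3 against 3 arrays can give. For all 3 probes the groups overlapped, and tail-suspension replicate 2 was the lowest of its group. Once scaled, replicate 2 lay inside the sham range with A_66_P120414 and A_55_P2047305. With A_55_P2106645 it lay below every sham array, and tail-suspension replicates 1 and 3 lay inside the sham range.

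Adrbk1, the gene of the receptor kinase GRK2, gave 2102, 1700.0 and 1799 in sham and 2064, 2242 and 2349 in tail-suspended hearts (chr19:4286021-4286080, minus strand). The groups overlapped once scaled. The log2 fold change was 0.04 (95% interval -0.20 to 0.28, adjusted p = 0.791), and its sign turned without sham replicate 2 (-0.035).

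**Figure D3:**
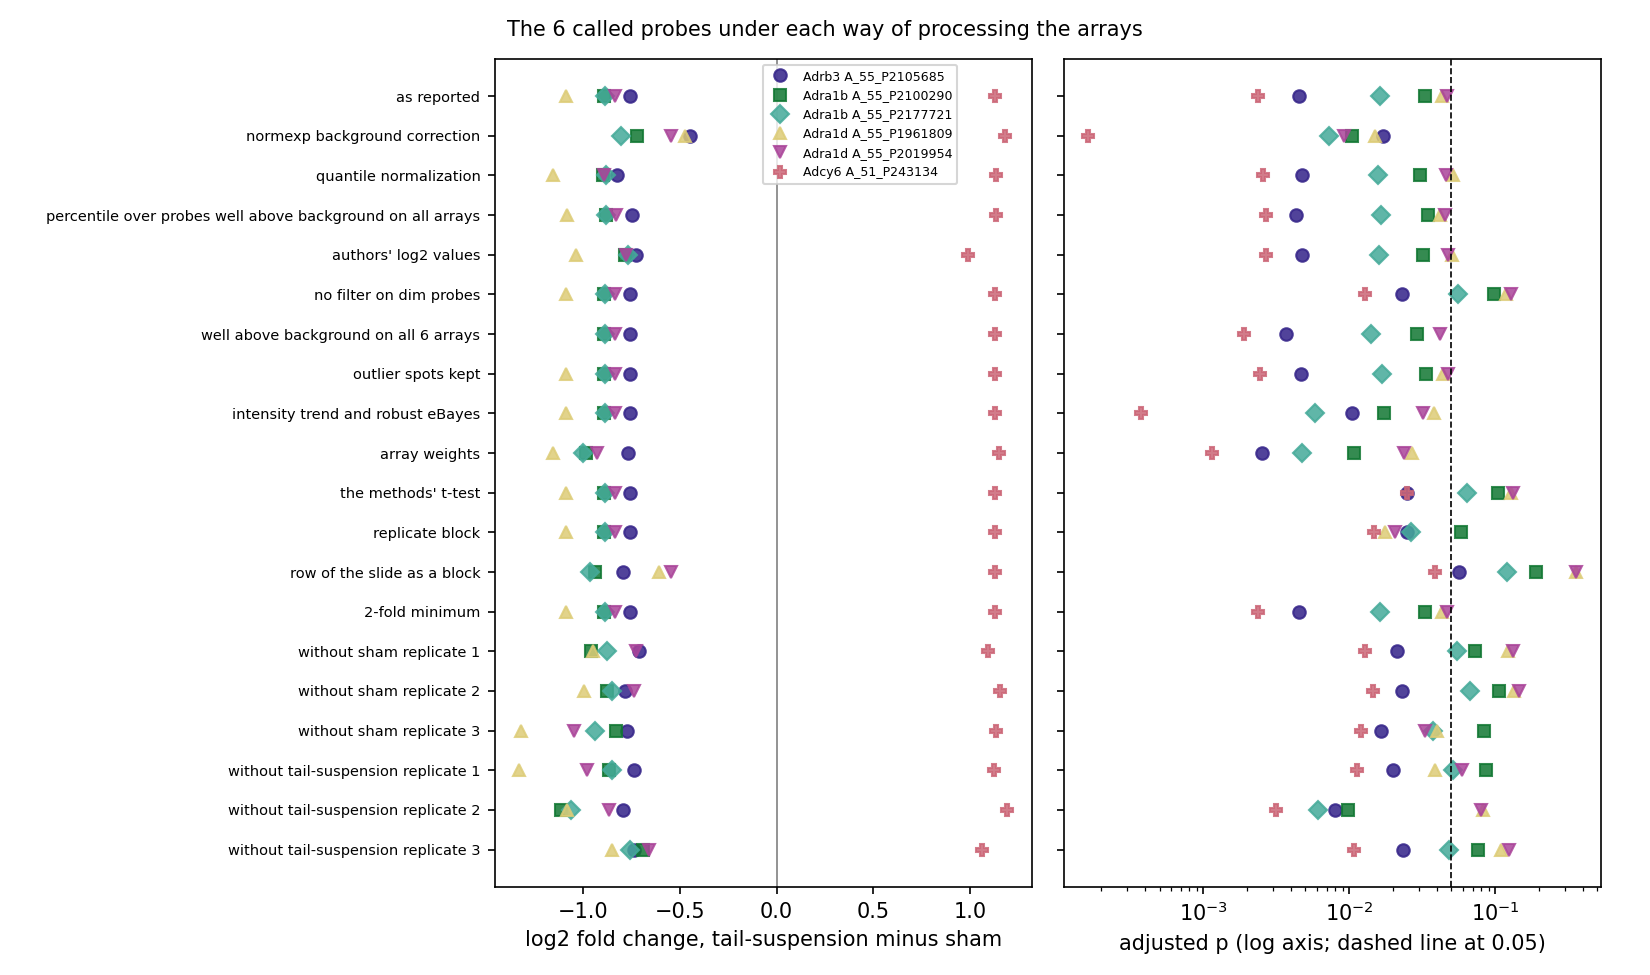
Log2 fold change (left, x axis) and adjusted p (right, log x axis, dashed line at 0.05) of the 6 called probes under each way of processing the arrays and with each array left out (y axis). All changes keep their sign; the adjusted p of Adcy6 is under 0.05 in every row, and those of Adra1b and Adra1d lie on both sides of the line.

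The other genes of the pathway were read from 11 lists holding 161 genes, each by its brightest tested probe. Of 136 tested genes, 15 were called higher (11.0%) and 21 lower (15.4%), against 10.5% and 11.2% of the 14198 genes tested in all, or 21.7% in either direction. Their median log2 fold change was 0.002, and that of all genes was -0.02. Of the 36 called genes, 10 kept their call with every array left out in turn: Dbh, Slc22a3, Gng11, Adcy1, Adcy7, Pde4a, Pde7a, Pde8b, Grk5 and Prkcd. Among them, Slc22a3 entered the test only through the sham arrays, where it was higher. With the slide row as a block, which leaves 1 tail-suspension array in the comparison, none of the 36 was called.

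On the ligand side, Dbh, the enzyme that makes noradrenaline from dopamine, gave 1631, 1344 and 2154 in sham and 529, 476 and 375 in tail-suspended hearts. The groups lay far apart, and Dbh fell by 2.09 on the log2 scale (SE 0.24, adjusted p = 0.00420). Th, the first enzyme of the same pathway, had a log2 fold change of -0.21 (adjusted p = 0.240). Slc22a3, a transporter that clears catecholamines from the tissue, was well above background on the 3 sham arrays and on no array of the other group. It was lower by at least 1.29-fold after tail-suspension (adjusted p = 0.00638). It entered the test only through the sham arrays, where it was higher, so its call is not independent of the filter. Chgb, a protein of catecholamine storage granules, rose by 1.05 (adjusted p = 0.0190). In all, 1 of 10 tested genes of catecholamine synthesis, storage and removal rose and 2 fell, with a median of -0.19. Of 10 markers of sympathetic neurons and Schwann cells, Th and Dbh among them, 9 were tested, and 1 rose and 1, Dbh, fell. With a filter on all 6 arrays Dbh was the single call, so the rise depended on the filter. Summed over the 10 markers, the level was 9.37 to 12.4 in sham and 5.18 to 7.38 in tail-suspended hearts. Dbh itself made up that difference, with 4.204 to 7.14 and 0.998 to 1.55, and the other 9 markers summed to 4.31 to 5.85 and 4.18 to 5.82.

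Among other receptors, Adra2b, an alpha-2 receptor, rose by 0.63 (SE 0.13, adjusted p = 0.0228) and was the single call among 3 tested genes, whose median was 0.11. Adra2a, the alpha-2 receptor that restrains noradrenaline release from nerve endings, was well above background on no array. Its level was therefore not compared.

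Of 25 tested G protein subunit genes, 2 rose and 3 fell, with a median of -0.15. Gng11, Gnb4 and Gng10, which encode beta and gamma subunits, fell by 0.85 (adjusted p = 0.00806), 0.77 (adjusted p = 0.0157) and 0.53 (adjusted p = 0.0136). Gnal, a relative of Gnas, was well above background on no sham array and on 3 tail-suspension arrays. It was at least 1.77-fold higher (adjusted p = 0.0187). Gnal entered the test only through the tail-suspension arrays, where it was higher, so its call is not independent of the filter. Gnai1, an inhibitory alpha subunit, rose by 0.51 (adjusted p = 0.0289), whereas Gnai2 (0.13, adjusted p = 0.538), Gnai3 (-0.15, adjusted p = 0.415) and Gnaq, the alpha subunit behind the alpha-1 receptors (-0.26, adjusted p = 0.0718), did not pass.

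Beside Adcy5 and Adcy6, 4 of 8 cyclase genes were tested. Adcy1 gave 208, 202 and 181 in sham and 119, 81.8 and 101 in tail-suspended hearts and fell by 1.19 (SE 0.17, adjusted p = 0.00831). Adcy7 fell by 0.83 (SE 0.11, adjusted p = 0.00647). Adcy4 (0.12, adjusted p = 0.438) and Adcy9 (0.14, adjusted p = 0.266) did not pass. Among the 6 cyclase genes with a tested probe, Adcy6 was the single one called higher.

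Phosphodiesterases break cAMP down. Of 15 tested genes, 1 rose and 5 fell, with a median of -0.01. Pde8b fell by 0.97 (SE 0.13, adjusted p = 0.00638), Pde4a by 0.78 (SE 0.12, adjusted p = 0.00910), Pde10a by 0.66 (adjusted p = 0.0265), Pde4b by 0.64 (adjusted p = 0.0174) and Pde11a by 0.40 (adjusted p = 0.0481). Pde7a rose by 0.83 (SE 0.13, adjusted p = 0.00974). Pde3a, a main phosphodiesterase of the heart, had a log2 fold change of 0.67 with its brightest probe (adjusted p = 0.0556) and 0.55 with another that passed the test (adjusted p = 0.0369), while Pde4d was at -0.10 (adjusted p = 0.565).

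Protein kinase A is held inactive by regulatory subunits until cAMP binds them. Of its 9 genes and those of its inhibitors, 1 rose and 2 fell, with a median of -0.05. Prkar1b, a regulatory subunit, rose by 0.67 (adjusted p = 0.0308), and the inhibitors Pkia and Pkig fell by 0.82 (adjusted p = 0.0229) and 0.31 (adjusted p = 0.0391). The catalytic subunit Prkaca was at -0.35 (adjusted p = 0.0717). The regulatory subunits Prkar1a (0.55, adjusted p = 0.0978) and Prkar2b (0.44, adjusted p = 0.183) did not pass with their brightest probes, though a second Prkar2b probe did (0.72, adjusted p = 0.0189) and a second Prkar1a probe was at -0.06.

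Of 15 tested genes of receptor kinases, arrestins and RGS proteins, 1 rose and 2 fell, with a median of 0.03. Grk5, the other main receptor kinase of the heart beside GRK2, gave 471, 503 and 529 in sham and 834, 1075 and 1189.8 in tail-suspended hearts. It rose by 0.82 (SE 0.13, adjusted p = 0.0102), and every tail-suspension array was above every sham array. The arrestins Arrb1 (0.13, adjusted p = 0.305) and Arrb2 (0.11, adjusted p = 0.622) did not pass. Rgs4 and Rgs6, which switch G proteins off, fell by 1.00 (adjusted p = 0.0274) and 0.39 (adjusted p = 0.0247).

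In the Gq arm that serves the alpha-1 receptors, 4 of 19 tested genes rose and 2 fell, with a median of 0.24. Prkcd, a protein kinase C, rose by 0.66 (SE 0.088, adjusted p = 0.00674). Itpr3, a calcium release channel, rose by 0.50 (adjusted p = 0.0238), Plcb4, a phospholipase C, by 0.38 (adjusted p = 0.0287) and Prkch, another protein kinase C, by 0.37 (adjusted p = 0.0448). Itpr1, another calcium release channel, fell by 0.38 (adjusted p = 0.0288).

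Among 12 tested genes of heart proteins that protein kinase A phosphorylates, Lipe, the hormone-sensitive lipase, rose by 1.06 (adjusted p = 0.0165), and Hspb6, a small heat shock protein, and Cacnb2, a calcium channel subunit, fell by 0.78 (adjusted p = 0.0200) and 0.70 (adjusted p = 0.0212). Pln, which restrains the calcium pump until it is phosphorylated, was at -0.23 (adjusted p = 0.107). The median was -0.11.

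Of 12 tested genes that CREB can induce, 2 rose and 2 fell, with a median of 0.67. Per1, a clock gene, gave 2626, 3061 and 7411 in sham and 10936, 18763 and 17987 in tail-suspended hearts. Sham replicate 3 lay between its own group and the other, and Per1 rose by 1.77 (SE 0.42, adjusted p = 0.0324). Junb rose by 1.11 (adjusted p = 0.0355), whereas Egr1 and Pde4b fell by 0.82 (adjusted p = 0.0222) and 0.64. Crem, which makes a repressor of the same genes, was at -0.33 with its brightest probe (adjusted p = 0.128), and a dimmer probe fell by 0.70 (adjusted p = 0.0348). Of 14 tested genes of other cAMP effectors and the CREB family, Ep300, a coactivator, was the single call, with a rise of 0.49 (adjusted p = 0.0237), and the median was 0.05.

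**Figure D4:**
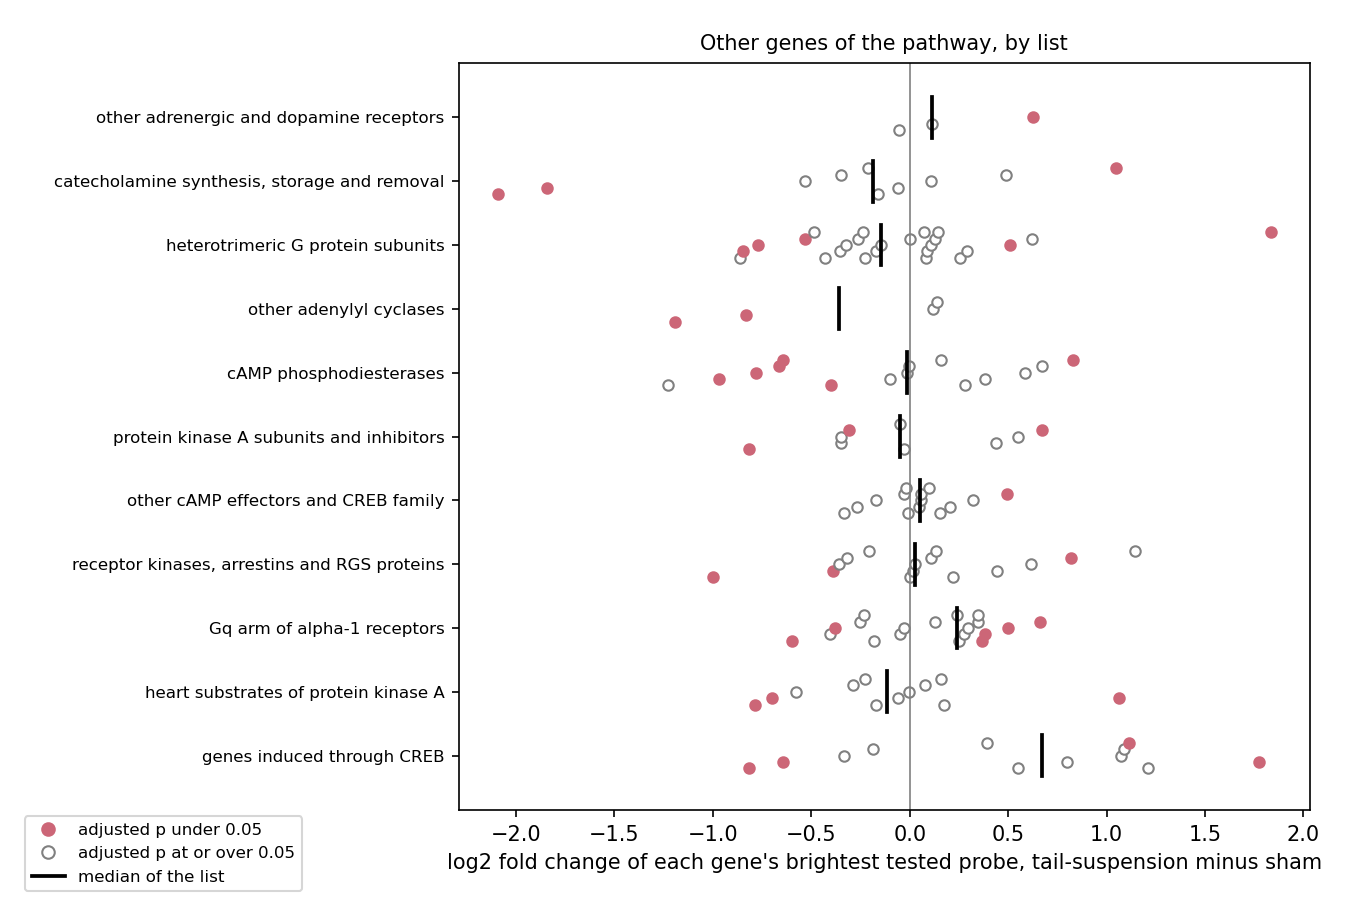
Log2 fold change of tail-suspension against sham (x axis) of each tested gene in the 11 pathway lists (y axis), read from its brightest probe. Filled red points have an adjusted p under 0.05, open grey points do not, and black bars mark the list medians, which run from -0.36 for the other cyclases to 0.67 for genes induced through CREB.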

How the data were processed

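The authors hybridised total RNA of cardiac muscle from 3 sham and 3 tail-suspension mice to 1-colour Agilent arrays and deposited the scanner output, in which Agilent Feature Extraction 10.7.1.1 had written a mean, a background and a processed intensity for each spot. A second table the authors deposited gives log2 values for these arrays. It correlated with the processed intensity of its array at 0.999 or above, and its sorted columns differed by at most 0.117, as after quantile normalization, which no source states.

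Control and outlier spots were left out and spots of a probe averaged. The log2 processed intensity minus the log2 75th percentile of all spots other than controls was tested with limma 3.58.1 in R 4.3.3 (lmFit and eBayes, no covariates, 6 arrays), with Benjamini-Hochberg adjustment at 0.05. Tested probes had at least 50% of their spots well above background on all arrays of one or both groups, and the brightest such probe stood for its gene. Precision is limited by the number of arrays, and p-values measure the spread between these mice. The series' design text gives 3 mice a group.

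The members, the 20 lists and the alternatives were chosen with earlier results of these data known. Named are all probes of the 9 genes, up to 6 called genes per pathway list, 17 pathway genes whatever they did, the 3 genes most like Adrb1, and the markers that define each cell type. A gene that this rule also names is not reported here. Gene names are the array's; 21938 of 36163 were found in RefSeq. "At least" folds hold the dim group at the lowest signal well above background on each array. The alternatives were normexp correction (offset 50), quantile normalization, a percentile over detected probes, the authors' log2 values, keeping outlier spots, no filter, a filter on all 6 arrays, array weights, robust eBayes with an intensity trend, a 2-fold minimum, the methods' t-test, the mean of a gene's probes, the replicate number or slide row as a block, and each array left out. The fit was tested on simulated data.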

Additional observations from a re-analysis of the deposited data

How the results depend on the processing

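With 3 arrays a group an exact permutation test cannot go below p = 0.1, so calls rest on the spread that limma shares across probes, and dim probes are limited by their signal over background. Of all probes, 3023 were called higher and 2683 lower. The counts were 320 and 177 with the slide row as a block, which compares tail-suspension replicate 1 alone with sham, 1041 and 790 without a filter, 1532 and 1248 by the methods' t-test, 4239 and 4092 with array weights, and 965 to 2931 and 726 to 2580 with each array left out, lowest without sham replicate 2. Same-numbered arrays deviated from their group means with correlations of -0.02, -0.02 and 0.05. The labels state no pairing of same-numbered mice, and a shared batch was not tested. The replicate block gave 1714 and 1403 calls, ended the call of the second Adra1b probe (-0.89, adjusted p = 0.0580) and left 24 of the 36 called pathway genes.

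Adcy6 kept its call under every alternative, and each called probe kept its sign. Of the 9 genes' probes, 1 was called lower without a filter and by the methods' t-test (Adrb3), with the slide row as a block (Adrb1) and with a 2-fold minimum (the second Adra1d probe), and 1 to 4 with an array left out. In the other direction, 7 were called lower under normexp correction and with array weights, both Adrb1 probes among them, and 6 with an intensity trend, the brighter Adrb1 probe among them. Without tail-suspension replicate 2, 2 were called higher. The t-test had an unadjusted p under 0.05 for 6 of the 14 probes, and 2 passed after adjustment. Neither the filter nor the t-test moves a change, so Adra1b stayed at -0.89 and Adra1d at -0.84 and -1.09 while missing the threshold, and Adrb3 at -0.75 passed both but not the 2-fold minimum. With the slide row as a block, and so from 1 tail-suspension array, Adrb3 (-0.79), Adra1b (-0.96 and -0.94) and Adra1d (-0.55 and -0.61) missed it. The second Adra1d probe also missed it under quantile normalization (-1.15) and in the authors' log2 values (-1.04), both with an adjusted p of 0.051. With an array left out, Adra1b ranged from -1.06 to -0.76 and from -1.11 to -0.69, and Adra1d from -1.04 to -0.66 and from -1.33 to -0.85. Signs turned for Adra1a under normexp correction (-0.11), with the row as a block (-0.018) and without sham replicate 2, for Gnas under quantile normalization (-0.043) and in the authors' log2 values (-0.036), for Adrbk1 without sham replicate 2 and for 1 Adcy5 probe without tail-suspension replicate 2. With an array left out Adra1a ranged from -0.082 to 0.24, Adrbk1 from -0.035 to 0.11 and that Adcy5 probe from -0.32 to 0.047. The cause was not tested.

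With the slide row as a block every pathway list had 0 called genes except catecholamine handling (1), and of the marker lists the endothelial had 1 and the neutrophil 5. Without a filter the lists held 0 to 4 called genes, and by the t-test 0 to 3. Quantile normalization and the authors' log2 values gave 5 heart substrates and 2 red cell genes, and a filter on all 6 arrays 3 red cell, 2 neutrophil, 1 sympathetic and 0 macrophage genes. With array weights the G protein list reached 8, the kinase A list 7, and the macrophage and red cell lists 3 and 4. With an intensity trend the lists of receptor kinases, heart substrates and fat cells reached 6, 5 and 1. With the mean of a gene's probes the kinase A and CREB family lists reached 5 and 4, and the heart muscle, fibroblast and red cell lists 2, 2 and 3. Normexp correction gave 3 endothelial, 3 fibroblast, 4 red cell, 1 sympathetic and 0 heart muscle and other receptor genes. With an array left out the lists held 0 to 7 called genes. The median change over all probes stayed within 0.1 of 0 in every setting.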

Other observations

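Promoter windows of RefSeq on GRCm38.p6, from 250 bases before to 50 bases after a gene's start, were found for 4 of the 9 genes, Gnas, Adra1b, Adcy5 and Adrb1, with 8 windows between them, some of which overlap. They were searched on both strands for the core of the cAMP response element, TGACG or CGTCA, because these genes are themselves part of the cAMP pathway. The core was present in 4 of the 8 windows, which belong to Gnas and Adrb1 and hold 3 distinct matches, since overlapping Gnas windows share 1, and in 20.8% of all 32851 windows. The full palindrome was present in none of the 8 and in 1.79% of all windows. A match is a run of letters and was not tested for use. The matches of Adrb1 and the nearest of Gnas are shown with the core in capitals. Gnas has several annotated starts, and the match shown lies 38 bases upstream of 1 and 57 bases upstream of another. The other Gnas match, at chr2:174329778-174329806, lies 216 bases upstream of a different start.
Adrb1 (chr19:56722015-56722043, plus strand, core 90 bases upstream of the start): gctgcgggagccTGACGcgcggccccggg
Gnas (chr2:174327699-174327727, plus strand, core 38 bases upstream of the start): aagaggttggggCGTCAtcaggctggtta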
